A study of Mus musculus with 8 samples.

Results

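Collagen is made as a soluble precursor that must be modified, trimmed and crosslinked before it can form fibrils, and the 10 genes described here, Pcolce, Bmp1, Lox, Loxl1, Loxl2, Plod1, Plod2, P4ha1, P4ha2 and Serpinh1, encode enzymes and helpers of that sequence. They are 10 of the 31053 genes in a bulk RNA-seq series of mouse brown adipose tissue (BAT). The set was selected on the p of the genotype comparison, in which Pcolce had the second smallest value, so the differences between genotypes given for these genes describe values that chose them and are not independent evidence. Of the 10 genes, 7 had enough counts to be among the 8930 genes tested, and 3 (Loxl2, Plod2 and P4ha2) did not.

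The series compared BAT of 4 wild-type (WT) mice with BAT of 4 Ucp1Δ/Δ mice, which the sample labels call ATGLKO. In the Ucp1Δ/Δ mice, the floxed Pnpla2 gene (Pnpla2 fl/fl), which encodes adipose triglyceride lipase (ATGL), is cut by a Cre recombinase under the Ucp1 promoter, so that the deletion is limited to UCP1+ thermogenic adipocytes and every other cell of the tissue keeps the gene. All mice were males on the C57BL6/J background, the labels give an age of 10 weeks for both genotypes (a figure legend of the study gives a younger one), and whether the WT mice carried floxed alleles or Cre is not given in the sources used here. The labels name the stromal vascular fraction as the cell type, yet the brown adipocyte markers were high in all samples: Ucp1 lay between 1291 and 4110 CPM (counts scaled to a common library size) in WT mice and between 1421 and 2821 CPM in Ucp1Δ/Δ mice, and the libraries are therefore described as BAT.

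Pnpla2 itself was between 2701 and 3152 CPM in the WT samples and between 403 and 531 CPM in the Ucp1Δ/Δ samples (log2FC -2.62 ± 0.17 SE, adjusted p = 1.97e-07, edgeR's quasi-likelihood test), so each library matched its label. Total counts ranged from 2017697 to 3115956 per sample, and 38.4% to 45.6% of them came from mitochondrially encoded genes. At these depths 3 counts equal 0.963 to 1.49 CPM. Over all genes tested, 13.3% were higher in Ucp1Δ/Δ mice and 7.63% were lower at an adjusted p under 0.05, here termed called (1191 and 681 genes, or 1478 and 404 with total counts only as the scaling), 14.4% had every Ucp1Δ/Δ sample above every WT sample, and the median log2FC was -0.01. CPM are not divided by gene length, so levels are compared below within a gene and not between genes. One feature set samples of the same genotype apart: the summed level of 10 skeletal muscle markers was 1790, 120, 24.0 and 851 CPM in WT samples 1 to 4 and 430, 2552, 84.0 and 1108 CPM in Ucp1Δ/Δ samples 1 to 4. The genotypes overlapped in this sum, and 0 of the 9 muscle markers tested passed the threshold in either direction (edgeR).

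Fibril-forming procollagen is built in the endoplasmic reticulum (ER), where prolyl 4-hydroxylases such as the alpha subunits P4ha1 and P4ha2 stabilize the triple helix, lysyl hydroxylases such as Plod1 and Plod2 prepare lysines for crosslinking and glycosylation, and the chaperone HSP47, encoded by Serpinh1, holds the folded helix until export. Outside the cell, the proteinase encoded by Bmp1 removes the C-terminal propeptide, the enhancer encoded by Pcolce binds that propeptide and speeds its removal, and the copper enzymes Lox, Loxl1 and Loxl2 oxidize lysines so that neighbouring molecules become covalently joined. In adipose tissue this machinery is best known from fibroblast-like stromal cells, and its products form the matrix that surrounds adipocytes.

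Calls among the tested genes were split between these compartments. All 4 of the tested genes that act outside the cell, Pcolce, Bmp1, Lox and Loxl1, were higher in Ucp1Δ/Δ mice, against 1 of the 3 tested genes that act in the ER, Plod1. Together 5 of 7 tested genes were called higher and 0 of 7 lower, beside 13.3% and 7.63% of all tested genes. The median log2FC of the 7 genes was 1.41. In the fit without a count filter, the untested ER genes Plod2 and P4ha2 were at 1.75 ± 0.56 and 1.32 ± 0.63 (log2FC, SE). In that fit Bmp1 was at 1.38 ± 0.36 and Loxl2 at 1.57 ± 0.45. Every Ucp1Δ/Δ sample lay above every WT sample for 4 of the 4 tested extracellular genes and 1 of the 3 tested ER genes, beside 14.4% of all tested genes. Including the genes below the count filter, this held for 5 of the 5 extracellular genes and for 1 of the 5 ER genes. These counts come from the contrast that selected the set, and the difference between compartments was not tested. In bulk tissue, more cells of one type and more RNA per cell cannot be told apart.

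**Figure D1:**
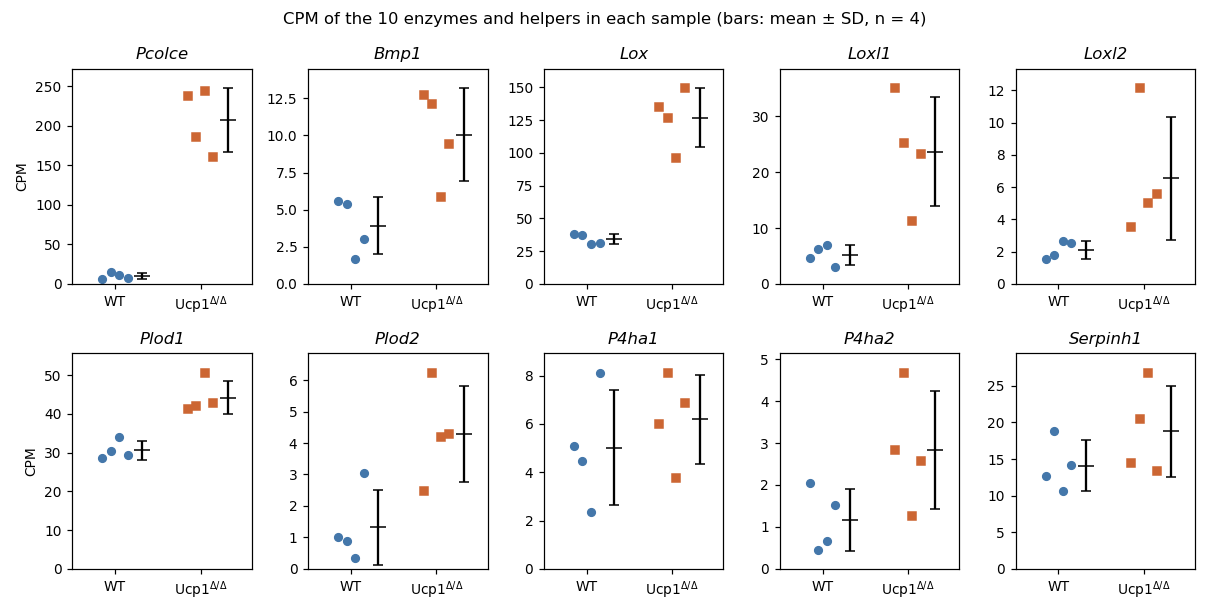
CPM of the 10 genes (vertical axes, linear and starting at 0, with a separate range for each gene) in each WT sample (circles) and each Ucp1Δ/Δ sample (squares), with the mean ± SD of 4 samples at the side. Pcolce rises from at most 14.8 CPM in WT to at least 160.5 CPM in Ucp1Δ/Δ mice, whereas the samples of P4ha1, P4ha2, Serpinh1 and Plod2 overlap between genotypes.

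The bases in front of the transcription start given by RefSeq (build GRCm38.p6) were read for the members with a promoter entry there. This is the case for 5 of the 10 genes: Pcolce, Plod1, P4ha1, P4ha2 and Serpinh1. They hold the gene with the largest change, the gene with the smallest called change, and both tested genes that were not called, and are shown so that their upstream sequence can be set beside those values. Each runs 5′ to 3′ on the strand of its gene. Capitals mark the GC box (GGGCGG, or CCGCCC on the other strand) and the ACGTG form of the hypoxia response core (or CACGT on the other strand). The Pcolce window lies at chr5:137611488-137611654 on the minus strand and stops where an annotated exon begins. It lies inside the annotated gene, whose 5′ end is at 137613784, and so not in front of the whole gene. The P4ha2 window (chr11:54100674-54100923, plus) also lies inside its annotated gene, which starts at 54100095. The Plod1, Serpinh1 and P4ha1 windows lie in front of their annotated genes. The Plod1 window lies at chr4:147936777-147937026 (minus), the Serpinh1 window at chr7:99353240-99353489 (minus) and the P4ha1 window at chr10:59323046-59323295 (plus).
Pcolce: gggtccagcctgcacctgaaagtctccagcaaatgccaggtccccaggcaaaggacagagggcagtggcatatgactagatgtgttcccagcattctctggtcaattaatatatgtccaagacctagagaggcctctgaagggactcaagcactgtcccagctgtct
Plod1: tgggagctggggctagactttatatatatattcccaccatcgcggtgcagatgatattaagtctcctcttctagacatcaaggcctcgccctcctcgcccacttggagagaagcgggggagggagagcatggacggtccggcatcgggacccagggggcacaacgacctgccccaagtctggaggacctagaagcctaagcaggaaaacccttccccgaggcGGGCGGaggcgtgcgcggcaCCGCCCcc
Serpinh1: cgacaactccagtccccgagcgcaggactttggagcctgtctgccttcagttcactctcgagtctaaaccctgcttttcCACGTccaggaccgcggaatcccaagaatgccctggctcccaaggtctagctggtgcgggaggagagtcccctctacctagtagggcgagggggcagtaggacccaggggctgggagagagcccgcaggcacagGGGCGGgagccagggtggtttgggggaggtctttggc
P4ha1: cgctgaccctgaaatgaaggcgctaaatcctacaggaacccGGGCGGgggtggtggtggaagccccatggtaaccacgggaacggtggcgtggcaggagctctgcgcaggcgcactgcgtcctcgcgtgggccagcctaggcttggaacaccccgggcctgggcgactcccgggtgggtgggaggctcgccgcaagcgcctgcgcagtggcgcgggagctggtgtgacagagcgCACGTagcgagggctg

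Within the 250 bases before the RefSeq start, all 5 genes held a GC box on one strand or the other. The share was 32.7% among 32851 promoter windows of the same length. In Pcolce it sat 60 bases before the start, in the part annotated as exon and therefore outside the window above. It is shown with 10 bases on each side (chr5:137611449-137611474).
Pcolce GC box: cccctgctgcCCGCCCagttggccag
The ACGTG form of the hypoxia response core was found in P4ha1, P4ha2 and Serpinh1 and not in Pcolce or Plod1, compared with 16.6% of all windows. The form GCGTG was not searched, and the Plod1 and P4ha1 windows above and the P4ha2 stretch below hold it. In P4ha1 the ACGTG form began 16 bases before the RefSeq start and in Serpinh1 171 bases before it, both on the opposite strand. In P4ha2 it began 78 bases before the RefSeq start on the gene's own strand (chr11:54100836-54100860).
P4ha2 hypoxia response core: tgcatcgcatACGTGcagcgcgtgg
The 3 genes with the ACGTG form are the tested genes that were not called, P4ha1 and Serpinh1, and a gene below the count filter, P4ha2. A link between these letters and the calls was not tested. A match of letters is a description of the window and does not show that a factor binds there.

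Pcolce (procollagen C-endopeptidase enhancer, ENSMUSG00000029718, chr5:137605103-137613784 in mm10, minus strand) is the gene for which the set was assembled. Its levels were 6.63, 14.8, 11.4 and 7.09 CPM in WT samples 1 to 4 and 237.0, 186.1, 244.5 and 160.5 CPM in Ucp1Δ/Δ samples 1 to 4. The lowest Ucp1Δ/Δ sample thus lay far above the highest WT sample. The counts behind these levels were 13 to 34 in WT and 374 to 670 in Ucp1Δ/Δ libraries. The log2FC was 4.35 ± 0.26 (SE), a 20.4-fold higher level with a 95% interval of 13.9 to 30.0. By p it ranked between Lgals3 and Gpnmb, both known for high levels in lipid-laden macrophages (adjusted p = 1.29e-07 for Lgals3, 1.37e-07 for Pcolce and 1.97e-07 for Gpnmb, edgeR's quasi-likelihood test). Under 19 alternative fits the log2FC stayed between 4.20 and 4.57. The exons of Pcolce overlap those of Fbxo24 on the same strand and of Gm36266 on the opposite strand, which had 5 and 37 counts over all 8 samples. Strand use in the counting is not given in the sources used here, so reads from Pcolce and Gm36266 cannot be told apart.

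Bmp1 encodes the proteinase whose activity the Pcolce product enhances. Its levels were 5.61, 5.38, 1.67 and 3.04 CPM in WT samples 1 to 4 and 12.7, 12.1, 5.85 and 9.44 CPM in Ucp1Δ/Δ samples 1 to 4. The genotypes did not overlap, but the lowest Ucp1Δ/Δ sample lay barely above the highest WT sample. The log2FC was 1.41 ± 0.38 (SE), a 2.65-fold higher level (95% interval 1.51 to 4.66; adjusted p = 0.0151, edgeR). The call rested on few reads, with 5 to 12 counts in WT libraries and 14 to 39 in Ucp1Δ/Δ libraries. It was lost without WT sample 3 (log2FC 1.09, adjusted p = 0.0599), without Ucp1Δ/Δ sample 1 (1.28, adjusted p = 0.0505) and without Ucp1Δ/Δ sample 2 (1.31, adjusted p = 0.0534), all by edgeR.

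Of 12 other genes that remove or help to remove propeptides, 5 were tested, 3 of these were higher, 0 lower and 2 not called, with a median log2FC of 0.83. Pcolce2, a second enhancer, was 6.63, 7.17, 5.01 and 6.59 CPM in WT and 40.7, 30.5, 25.5 and 22.3 CPM in Ucp1Δ/Δ samples (log2FC 2.24 ± 0.25 SE). Adamts2, which removes the N-terminal propeptide, went from 5.78 ± 2.09 to 30.0 ± 7.91 CPM (SD, n = 4; log2FC 2.37 ± 0.28 SE). Pcsk5, a proprotein convertase, had a log2FC of 0.83 ± 0.24 (SE). The convertases Furin (log2FC -0.11 ± 0.21 SE) and Pcsk6 (0.26 ± 0.18 SE) did not pass the threshold, and the other tolloid-type proteinases Tll1 and Tll2 had 3 and 0 counts over all 8 samples.

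Among the lysyl oxidases, Lox was measured with the most counts. Its levels were 38.2, 37.6, 30.4 and 31.4 CPM in WT samples 1 to 4 and 134.8, 126.6, 96.1 and 149.4 CPM in Ucp1Δ/Δ samples 1 to 4. WT samples were close together, with a coefficient of variation of 11.9%, and the genotypes were well apart. The log2FC was 1.88 ± 0.18 (SE), a 3.69-fold higher level (95% interval 2.81 to 4.84; adjusted p = 4.21e-06, edgeR).

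Loxl1, a lysyl oxidase known for elastic fibres, was 4.59, 6.27, 7.01 and 3.04 CPM in WT and 35.0, 25.2, 11.3 and 23.2 CPM in Ucp1Δ/Δ samples 1 to 4. Its Ucp1Δ/Δ samples spread widely, sample 1 being highest and sample 3 lowest, but all lay above WT. The log2FC was 2.14 ± 0.34 (SE), a 4.40-fold higher level (95% interval 2.65 to 7.31). Loxl2, whose substrates include basement membrane collagen, was below the count filter, with 3, 4, 8 and 5 counts in WT and 10, 39, 12 and 13 counts in Ucp1Δ/Δ samples. The lowest Ucp1Δ/Δ sample was at 3.54 CPM and the highest WT sample at 2.67 CPM. Without the filter the log2FC of Loxl2 was 1.57 ± 0.45 (SE), and Ucp1Δ/Δ sample 2 stood highest. The adjusted p was 0.00558 by edgeR in that fit and 0.0358 by DESeq2.

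Of 8 genes for crosslinking by other enzymes and for copper supply, only 5 had enough counts, with 2 higher and 0 lower (median log2FC 0.21). Tgm2, a transglutaminase, had a log2FC of 0.68 ± 0.16 (SE), from 79.8 ± 8.37 to 128.0 ± 10.4 CPM (SD, n = 4). Pxdn, the peroxidase that forms sulfilimine bonds in collagen IV, had a log2FC of 0.77 ± 0.24 (SE). Copper supply was not called, with Atox1 at 0.09 ± 0.25 and Atp7a at 0.21 ± 0.33 (log2FC, SE). Loxl3 and Loxl4 had 18 and 1 counts over all 8 samples and were not tested. Matrix proteins that bind collagen, lysyl oxidases or procollagen proteinases were higher for 4 of 5 tested genes and lower for 0 (median log2FC 1.98): fibronectin (Fn1, 2.39 ± 0.32), Sparc (1.20 ± 0.16), fibulin 5 (Fbln5, 1.98 ± 0.28) and thrombospondin 1 (Thbs1, 2.86 ± 0.46; log2FC, SE). Periostin (Postn), which binds the Bmp1 product, was at 25.0 ± 6.72 CPM in WT and 25.6 ± 6.14 CPM in Ucp1Δ/Δ mice (SD, n = 4; log2FC 0.03 ± 0.24 SE).

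Among the enzymes of the ER, Plod1, a lysyl hydroxylase of the helix, was 28.6, 30.5, 34.1 and 29.4 CPM in WT samples 1 to 4 and 41.4, 42.0, 50.6 and 42.9 CPM in Ucp1Δ/Δ samples 1 to 4. The genotypes did not overlap, and both had a coefficient of variation under 10%. The log2FC was 0.52 ± 0.17 (SE), a 1.44-fold higher level (95% interval 1.12 to 1.84; adjusted p = 0.0356, edgeR). The call was lost in 11 of 19 alternative fits although the log2FC stayed between 0.47 and 0.66. These included DESeq2 (adjusted p = 0.0659), the fit without a count filter (adjusted p = 0.104), the replicate block (adjusted p = 0.0546), and leaving out WT sample 1, 3 or 4 or any Ucp1Δ/Δ sample (highest adjusted p = 0.102).

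Plod2, the lysyl hydroxylase of the telopeptides, was below the count filter. It had 2, 2, 1 and 6 counts in WT and 7, 20, 10 and 10 counts in Ucp1Δ/Δ samples. On the CPM scale the genotypes overlapped, because WT sample 4 (3.04 CPM) stood above Ucp1Δ/Δ sample 1 (2.48 CPM). The log2FC without the filter was 1.75 ± 0.56 (SE), with an adjusted p of 0.0189 by edgeR and 0.0675 by DESeq2.

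Of the prolyl 4-hydroxylase subunits, P4ha1 was 5.10, 4.48, 2.34 and 8.11 CPM in WT and 6.01, 8.09, 3.76 and 6.87 CPM in Ucp1Δ/Δ samples 1 to 4. The 4 WT samples spanned the whole range of the Ucp1Δ/Δ samples. The log2FC was 0.37 ± 0.38 (SE) with a 95% interval of -0.44 to 1.18, so the data allow a lower level as well as one up to 2.26-fold higher (adjusted p = 0.552, edgeR). P4ha2 had 4, 1, 2 and 3 counts in WT and 8, 15, 3 and 6 counts in Ucp1Δ/Δ samples and was not tested. Without the filter its log2FC was 1.32 ± 0.63 (SE; adjusted p = 0.163, edgeR).

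Serpinh1 (HSP47) was 12.7, 18.8, 10.7 and 14.2 CPM in WT and 14.5, 20.5, 26.7 and 13.3 CPM in Ucp1Δ/Δ samples 1 to 4. Ucp1Δ/Δ samples 1 and 4 lay within the WT range. The log2FC was 0.42 ± 0.26 (SE) with a 95% interval of -0.14 to 0.98 (adjusted p = 0.298, edgeR), so the upper bound was a 1.97-fold higher level.

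**Figure D2:**
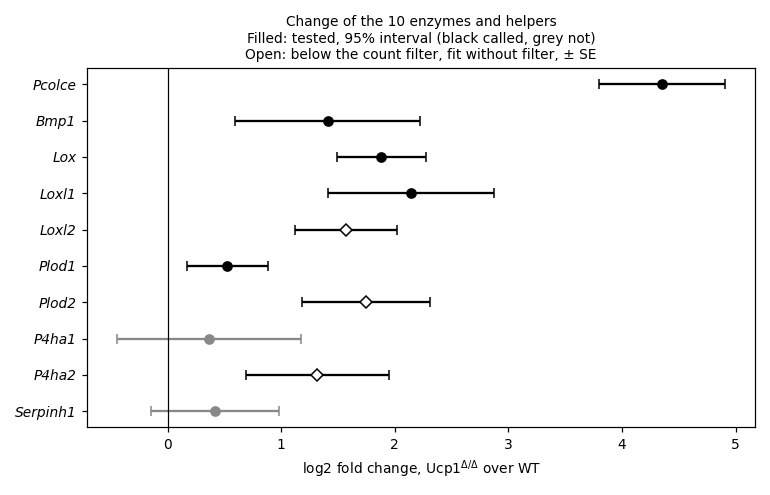
Log2 fold change of each gene in Ucp1Δ/Δ over WT mice (horizontal axis; n = 4 per genotype). Filled circles give the 7 tested genes with 95% intervals, black where the adjusted p is under 0.05, and open diamonds give the 3 genes below the count filter with their SE from the fit without a filter. Pcolce stands alone at 4.35, Lox, Loxl1 and Bmp1 lie between 1.41 and 2.14, and the intervals of P4ha1 and Serpinh1 cross 0.

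Partners of the ER enzymes were described from 2 further lists. Of 12 other genes of collagen hydroxylation and glycosylation, 7 were tested, 3 were higher and 0 lower (median log2FC 0.42). P3h2, a prolyl 3-hydroxylase of collagen IV, was 1.02, 1.79, 0.33 and 1.52 CPM in WT and 9.91, 9.33, 4.60 and 8.16 CPM in Ucp1Δ/Δ samples (log2FC 2.81 ± 0.45 SE). Colgalt1, which adds galactose to hydroxylysine, had a log2FC of 0.79 ± 0.20, and P4hb, the protein disulfide isomerase that pairs with P4ha1 and P4ha2, one of 0.70 ± 0.21 (SE). P3h1 (0.42 ± 0.38) and P3h4 (-0.40 ± 0.26) did not pass the threshold. Of 13 genes of ER folding and export of procollagen, 10 were tested, 2 were higher and 0 lower, and the median log2FC was -0.13. The 2 genes were Sec24d, a coat protein of the vesicles that carry procollagen (log2FC 1.82 ± 0.39), and Creb3l2, a transcription factor of the secretory pathway (1.19 ± 0.32, SE). Klhl12, which enlarges those vesicles, stayed at 10.9 ± 4.22 and 10.8 ± 1.95 CPM (SD, n = 4), and Fkbp9 at 38.6 ± 6.87 and 40.3 ± 3.94 CPM.

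Of 9 fibrillar collagen chains, the main substrates, 6 were tested and all 6 were higher, with a median log2FC of 2.16, while Col2a1, Col11a1 and Col11a2 had 0, 5 and 9 counts over all 8 samples and were not tested. Col1a1 was 24.0, 37.2, 30.7 and 38.5 CPM in WT and 135.1, 256.1, 123.7 and 166.1 CPM in Ucp1Δ/Δ samples. Its log2FC was 2.39 ± 0.25, that of Col1a2 2.13 ± 0.34 and that of Col3a1 2.74 ± 0.30 (SE). The minor chains Col5a1, Col5a2 and Col5a3, which limit fibril width, had log2FC of 2.19 ± 0.24, 2.07 ± 0.25 and 1.90 ± 0.26. Among 11 other substrates, all tested, 8 were higher and 0 lower (median log2FC 1.35). They include the microfibrillar Col6a3 (2.45 ± 0.30) and Col6a2 (1.93 ± 0.25) and the basement membrane chains Col4a1 (1.0 ± 0.15) and Col4a2 (1.02 ± 0.17). Col14a1 (0.95 ± 0.49) and elastin (Eln, 0.50 ± 0.25), a substrate of Loxl1, did not pass the threshold.

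**Figure D3:**
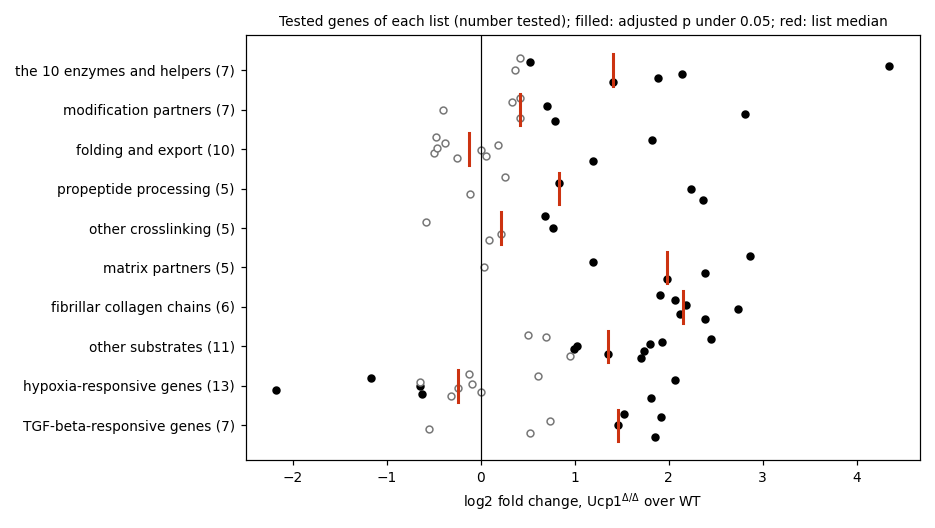
Log2 fold change in Ucp1Δ/Δ over WT mice (horizontal axis) of every tested gene of each list, with the number tested in brackets. Filled points have an adjusted p under 0.05, open points do not, and red bars are list medians, which reach 2.16 for fibrillar collagen chains and lie at -0.13 for folding and export.

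The enzymes were then set against their substrates within each sample, as reads per 1000 reads of Col1a1, Col1a2 and Col3a1. Pcolce was at 42.1, 102.8, 94.4 and 26.9 reads in WT and at 353.9, 128.3, 396.1 and 183.2 reads in Ucp1Δ/Δ samples 1 to 4. The mean log2 difference was 2.06, and Pcolce was the only member with a higher mean per read of the 3 chains in Ucp1Δ/Δ mice. The gain did not overlap between genotypes with the 3 chains summed, but it did with Col3a1 alone. The other 9 genes had a lower mean per read of the 3 chains in Ucp1Δ/Δ mice, but with Col1a2 alone Loxl1 turned to a difference of 0.03. For P4ha1 the log2 difference was -1.99, from 28.4 ± 6.02 to 7.12 ± 1.57 reads per 1000 (SD, n = 4), without overlap. Serpinh1 (-1.99), Plod1 (-1.85) and Loxl2 (-0.87) were also lower in every Ucp1Δ/Δ sample than in every WT sample, and all 3 overlapped with Col1a2 alone. Bmp1 (-0.93), Lox (-0.51), Loxl1 (-0.24), Plod2 (-0.32) and P4ha2 (-1.0) overlapped. These ratios use the contrast that selected the genes and carry no test.

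**Figure D4:**
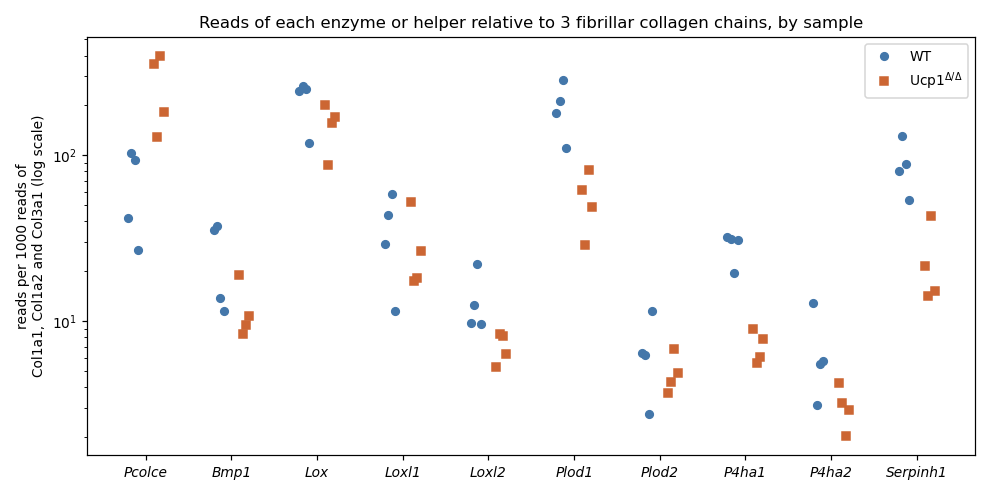
Reads of each gene per 1000 reads of Col1a1, Col1a2 and Col3a1 (vertical axis, log scale) in each WT (circles) and Ucp1Δ/Δ sample (squares). Pcolce lies higher in Ucp1Δ/Δ samples (128.3 to 396.1) than in WT samples (26.9 to 102.8), and P4ha1, Serpinh1, Plod1 and Loxl2 lie lower without overlap.

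Cell type markers also differed between genotypes. Of 10 stromal and fibroblast markers, 9 were tested, 8 were higher and 0 lower, Pi16 did not pass and Dpp4 was not tested. Their sum was 347 to 572 CPM in WT and 1145 to 1699 CPM in Ucp1Δ/Δ mice, mostly from Gsn, which other cells also express. Without Gsn the sum was 101 to 133 CPM against 243 to 416 CPM. All 9 tested macrophage markers of 10 were higher, with sums of 88.2 to 130 CPM against 872 to 1404 CPM. Endothelial markers (1 of 9 tested higher) and mural cell markers (1 of 7 tested higher) had sums of 252 to 323 against 331 to 390 CPM and of 219 to 310 against 340 to 369 CPM. Of the brown adipocyte markers, 4 of 10 were lower, among them Cidea, and 1, Dio2, was higher. Among Schwann cell markers, S100b was higher whereas Mbp was not called. Of 5 mesothelial markers only Lrrn4 was tested and it was not called (6.44 ± 2.85 CPM in WT and 6.46 ± 2.32 CPM in Ucp1Δ/Δ mice, SD, n = 4), Msln and Krt19 had 1 and 2 counts and Upk3b and Wt1 were at 0, and lymphocyte markers were too low to be tested (0 of 6). The part of stromal cells, macrophages and other cells in the values of the 10 genes was not tested.

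Measured per 1000 reads of the stromal and fibroblast markers, Pcolce still differed without overlap, at 12.0 to 32.7 reads in WT and 109.5 to 213.5 reads in Ucp1Δ/Δ samples (mean log2 difference 2.96, and 3.08 without Gsn). Plod1 (-0.95) and P4ha1 (-1.09) were lower without overlap, though P4ha1 overlapped once Gsn was left out. The other 7 genes overlapped between genotypes on this scale, with Lox at 0.39, Loxl1 at 0.66 and Bmp1 at -0.02. Per 1000 reads of the macrophage markers Pcolce was at 57.0 to 128.8 reads in WT and 132.6 to 279.0 reads in Ucp1Δ/Δ samples, a mean log2 difference of 1.17, and the other 9 genes were lower.

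Within genotypes the 7 tested genes did not move as a block. Over the 21 pairs, the correlation of deviations from the genotype mean (log2 CPM, 8 samples that share library and depth) had a median of -0.04, was above 0 in 10 pairs, and ran from -0.85 for Bmp1 and Plod1 to 0.78 for Bmp1 and Lox. The skeletal muscle markers moved with some of them. Their log2 sum had a correlation of deviations of 0.88 with P4ha1, -0.87 with Plod1 and -0.79 with Pcolce, of 0.68 and 0.58 with Bmp1 and Lox, and of -0.04 and -0.16 with Loxl1 and Serpinh1. Other lists reached values of similar size. P4ha1 was at 0.96 with folding and export and 0.89 with stromal and fibroblast markers, and Pcolce at 0.81 with brown adipocyte markers. With stromal and fibroblast markers, Plod1 was at -0.84 and Bmp1 at 0.82. Which of these lists the genes follow was not tested. In both genotypes the 2 samples richest in muscle markers, 1 and 4 among WT and 2 and 4 among Ucp1Δ/Δ samples, had the 2 lowest Pcolce levels and the 2 highest P4ha1 levels of their genotype. In fits added after the samples were seen, 5 members were higher with the muscle sum as a covariate and 4 were higher without the sample of each genotype richest in muscle markers (Plod1 lost, adjusted p = 0.144, edgeR), and the log2FC of Pcolce was 4.53 and 4.27.

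**Figure D5:**
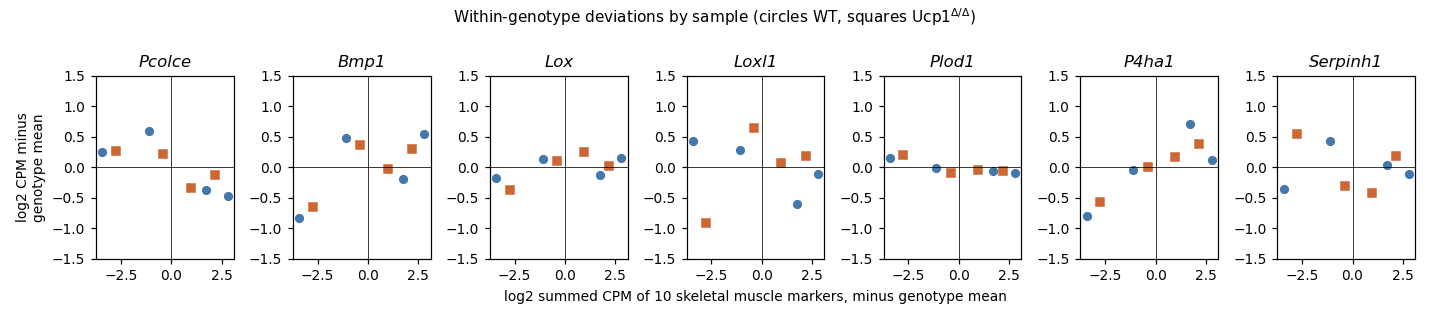
Deviation of each tested gene's log2 CPM from its genotype mean (vertical axis) against the same deviation of the log2 summed CPM of 10 skeletal muscle markers (horizontal axis), by sample (circles WT, squares Ucp1Δ/Δ; 8 samples per panel). P4ha1 climbs with the muscle markers (0.88) and Pcolce and Plod1 descend (-0.79 and -0.87), the latter within a narrow band.

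The genes whose pattern was most like that of Pcolce were named by the Pearson correlation of log2 CPM over the 8 samples, among 6423 genes with a mean of at least 10 CPM. They were Hk1, hexokinase 1 (0.995), Rarres2, the adipokine chemerin (0.989), Stx4a, a membrane fusion protein (0.989), Col4a1 (0.985) and Igfbp7, a secreted binding protein (0.985). Hk1 went from 11.8 ± 2.81 to 70.7 ± 7.80 CPM (SD, n = 4; log2FC 2.56 ± 0.20 SE), and Stx4a only from 21.4 ± 0.97 to 31.0 ± 1.01 CPM (0.53 ± 0.17 SE). With 2 separate genotypes such a correlation mostly records the difference between them. Within genotypes, the correlation of deviations with Pcolce was 0.84 for Hk1, 0.69 for Rarres2, 0.63 for Stx4a, 0.48 for Col4a1 and 0.82 for Igfbp7.

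Hypoxia and transforming growth factor beta (TGF-beta) are both known to raise collagen-modifying enzymes, and genes responsive to each were listed. Of 16 hypoxia-responsive genes 13 were tested, and they went both ways, with 2 higher, 4 lower and a median log2FC of -0.24. Ndrg1 (2.07 ± 0.22) and Adm (1.81 ± 0.33) were higher, while Pdk1 (-1.17 ± 0.20), Egln3 (-2.17 ± 0.43), Hk2 (-0.64 ± 0.17) and Bnip3 (-0.63 ± 0.20) were lower (log2FC, SE). Egln1 (0.00 ± 0.16) and Kdm3a (-0.09 ± 0.30) did not pass the threshold. Of 11 TGF-beta-responsive genes 7 were tested, 4 were higher and 0 lower (median log2FC 1.46). These were Acta2 (1.86 ± 0.33), which smooth muscle cells express as well, Tgfbi (1.52 ± 0.29), the inhibitor Smad7 (1.46 ± 0.40) and the ligand Tgfb1 (1.92 ± 0.45), which was 1.02, 2.24, 2.67 and 1.52 CPM in WT and 13.8, 4.98, 5.43 and 5.58 CPM in Ucp1Δ/Δ samples. Tagln (0.74 ± 0.41) and Ltbp2 (0.52 ± 0.27) did not pass.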

How the data were processed

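BAT of 4 WT and 4 Ucp1Δ/Δ mice was profiled by single-end digital mRNA-seq. According to the methods of the study, bbduk was used for trimming, STAR for alignment (mm10) and HTseq-counts for counting, whereas the submitters' processing notes name Trimmomatic, HISAT2 and DESeq2. The authors deposited raw counts per Ensembl gene and log2 values, which equal the log2 of the count over 1 factor per sample, plus 1. Annotation release and strand setting are not given in the sources used here. Chi-square per degree of freedom was 4.69 to 23.2 between replicates, so none was a duplicate.

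Symbols and positions came from GENCODE M21, which named 30934 of 31053 genes. Counts were filtered with filterByExpr, scaled by TMM and tested for genotype with edgeR 4.0.16 (quasi-likelihood test, Benjamini-Hochberg over 8930 genes, threshold 0.05) in R 4.3.3. SE is the log2FC over the square root of F. Log2 CPM used a prior count of 2. The tests were checked on simulated data. The floor of 3 counts covers counting error only. The design text calls the samples biological replicates. Replicate numbers did not pair the samples (same-number correlations -0.20 to 0.30). Alternatives used DESeq2 1.42.0, limma 3.58.1, other scalings and filters, a replicate block and leaving samples out.

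The members and lists were chosen with earlier results of these data known. Genes named from a pathway list were up to 4 with the smallest p in each direction and up to 2 with the largest p, from a cell type list up to 3 with the highest CPM, plus the 5 most like Pcolce, Pnpla2 and 3 collagen chains. Dio2, Pi16, Dpp4, Upk3b, Wt1, Col2a1, Col11a1, Col11a2, Tll1, Tll2, Loxl3, Loxl4, Lgals3 and Gpnmb were named after their values were seen. No sequence of Lox is shown.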

Additional observations from a re-analysis of the deposited data

Results flagged for a closer look

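In 12 of 172 groups of 4 samples, 1 sample stood farther from the others, relative to the range of its group, than Dixon's 95% critical value allows, and chance alone would give about 8.6. None of the 20 groups of the 10 collagen enzymes and helpers was among them. The gap as a share of the range is given for each. Ucp1Δ/Δ sample 2 was above the others for the minor fibrillar chains Col5a1 (0.936) and Col5a2 (0.844), which are substrates of these enzymes, and for Msln (1), where it had the only reads. Ucp1Δ/Δ sample 1 was above the others for Tgfb1 (0.893) and below them for Egln3 (0.845). WT sample 2 was above the others for Fkbp9 (0.856), Tgm2 (0.875) and Atp7a (0.889). WT sample 4 was below the others for Furin (0.848) and above them for Kdr (0.913). WT sample 3 was below for Tgfbi (0.856), and WT sample 1 was below for Cd3e (0.830).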

How the results depend on the processing

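The 3 lysyl oxidase and enhancer genes Pcolce, Lox and Loxl1 kept their direction and call in every alternative fit that tested them, and the log2FC of the 7 tested members kept its sign in every fit that tested them. Of the genes differing between genotypes, 1872 in all (1191 higher, 681 lower), 1195 were called with at least 10 counts in every sample (746 higher, 449 lower), 1081 with a log2FC past 1 as well, and 1095 (279 lower) without the sample of each genotype richest in muscle markers. With total counts only, 404 were lower and 1478 higher, and the median log2FC moved to 0.13. DESeq2 called 2075 genes and limma voom 2149. Leaving out 1 sample gave 1345 to 2155 genes, 945 to 1304 of them higher and 400 to 851 lower, with the fewest lower without Ucp1Δ/Δ sample 2. Members called higher, 5 in all, were 3 with at least 10 counts in every sample and 3 to 6 when 1 sample was left out. There were 3 without Ucp1Δ/Δ sample 2, where Bmp1 and Plod1 lost their call. Without a count filter 6 members were called, with Loxl2 and Plod2 among them and Plod1 not. Causes were not tested, apart from the filter on 10 counts, which tests fewer genes. With the replicate block, 1719 genes and 4 members were called; the numbers do not pair the samples, and only Plod1 (adjusted p = 0.0546, edgeR) lost its call among members. The difference of P4ha1 per read of Col3a1 alone was -2.35 on the log2 scale, and that of Loxl1 per read of Col1a2 alone was 0.03, against -0.24 per read of the 3 chains. At 2017697 to 3115956 counts a sample, 38.4% to 45.6% of them mitochondrially encoded, 3 of 10 members had too few counts to be tested.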
